A study of Mus musculus with 6 samples.

Results

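Annexins are proteins that bind negatively charged membrane lipids when calcium is present, and the 10 annexin genes named in a fixed list of symbols (*Anxa1* to *Anxa9* and *Anxa11*) were followed here in mouse keratinocyte lines. All 10 were among the 24982 genes of the deposited files. RNA-seq was done on 6 libraries, 3 of the KSFM-Ca2+ cells and 3 of the DKSFM cells. Both lines came from neonatal skin of C57BL/6 mice and received no treatment. The KSFM-Ca2+ cells were derived and kept in a keratinocyte medium with little calcium, and the DKSFM cells descend from them and grow in a defined medium with more calcium, after most of the transferred cells had been lost. The lines therefore differ in medium, in descent and in the survival of few cells at once, and the parts of these in any difference cannot be told apart. The study's statistics section and the caption of a figure with RNA-seq values speak of at least 3 independent experiments or biological samples. Neither says whether the 6 libraries came from separate cultures. The p-values therefore measure only the spread between these libraries, which may be technical. The files list for each gene the mean read coverage per base, a level per length. The bases over which it was averaged are not given, so that comparisons between genes assume that these bases match their transcripts. The 3 KSFM-Ca2+ libraries had coverage totals of 1601676, 1238411 and 1057750, and the 3 DKSFM libraries had totals of 1174348, 1239438 and 1170675. Levels below are coverage normalized between libraries, given as mean ± SD with n = 3 per line, and fold changes are DKSFM over KSFM-Ca2+ on the scale log2(normalized coverage + 0.1).

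The labelled cell type was checked against marker genes. All 10 keratinocyte markers were measured in both lines, and their summed normalized coverage was 19732, 20079 and 19809 in the KSFM-Ca2+ libraries and 48860, 45141 and 49297 in the DKSFM libraries, with *Krt14* the most abundant. Of these markers 7 were higher in the DKSFM cells (beside 35.5% of all tested genes) and *Sfn* did not pass. The 2 lower markers (beside 37.1%) were *Itgb4*, with a log2 fold change of -0.74, and *Cdh1*, with -0.13. For *Cdh1* the study reports the other direction by another assay, qPCR relative to mouse embryonic stem cells, with increased E-cadherin expression in the DKSFM cells. The rise of the sum thus rests on the abundant *Krt14*, *Krt5* and *Perp*. Of 7 fibroblast markers 6 were listed at 0 in every library, among them *Col1a1* and *Dcn*, and the remaining *Pdgfra* was 1.14, 0.890 and 1.30 in the KSFM-Ca2+ cells and 2.34, 2.10 and 2.23 in the DKSFM cells. All 6 melanocyte markers stayed under 1, led by *Pmel*, and summed to 0.533, 0.890 and 0.708 in the KSFM-Ca2+ cells and 0.318, 0.699 and 0.212 in the DKSFM cells, with *Dct* and *Tyr* at 0. The 6 leukocyte markers summed to 1.30, 1.58 and 2.01 in the KSFM-Ca2+ cells, almost all of it *Cd74*, and to 0, 0.2 and 0 in the DKSFM cells, where *Cd74* was listed at 0, while *Ptprc* was listed at 0 in 5 of the 6 libraries. The 4 endothelial markers summed to 2.82, 3.16 and 3.30 in the KSFM-Ca2+ cells and to 8.28, 8.29 and 7.42 in the DKSFM cells, almost all of it *Pecam1*, with *Cdh5* at 0. The part of these low levels in the annexin differences was not tested.

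Annexins share a folded core that holds calcium and docks on phospholipids such as phosphatidylserine, and they differ in the N-terminal tail, through which several bind S100 proteins. They organise membrane domains, take part in vesicle traffic and help to reseal torn plasma membranes. In the epidermis several annexins are abundant in keratinocytes, and *Anxa1* protein is among the substrates cross-linked into the cornified envelope.

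All 10 annexins passed the filter on low values (3 or more libraries with 0.5 or more of normalized coverage) and were tested with limma among 12409 genes. At an adjusted p under 0.01, 4 annexins were higher in the DKSFM cells (*Anxa1*, *Anxa2*, *Anxa4* and *Anxa8*), beside 35.5% of all tested genes, and 5 were lower (*Anxa3*, *Anxa5*, *Anxa6*, *Anxa9* and *Anxa11*), beside 37.1%. *Anxa7* did not pass. A change of at least 2-fold was seen upward for *Anxa8* alone, beside 13.2% of all tested genes, and downward for *Anxa5*, *Anxa6* and *Anxa9*, beside 10.5%. The libraries of the lines did not overlap for 9 of the 10 annexins and for 83.3% of all tested genes. Over the annexins the log2 fold changes had a median of -0.30, and over every tested gene one of -0.00122. The libraries are bulk RNA, so that fewer cells with a transcript and less of it per cell cannot be told apart.

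**Figure D1:**
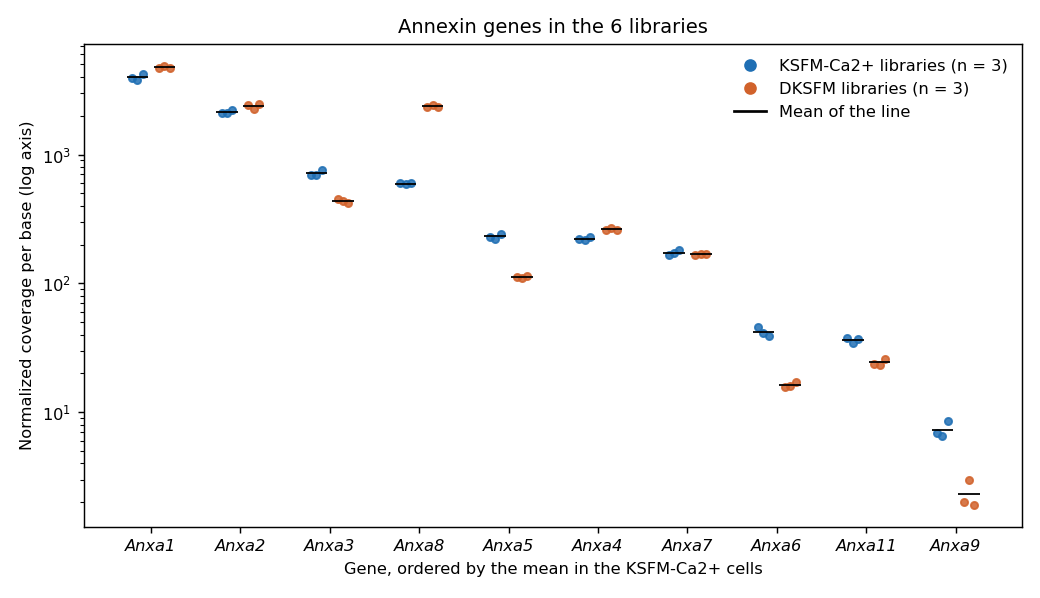
Normalized coverage per base of each annexin gene (log axis) in the 3 KSFM-Ca2+ and 3 DKSFM libraries, with the mean of each line as a bar. *Anxa1* and *Anxa2* lead in the KSFM-Ca2+ cells, and *Anxa8* moves from a mean of 594 to 2369.9, next to *Anxa2*, in the DKSFM cells.

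The levels of the family spanned a wide range. In the KSFM-Ca2+ cells the order of the mean normalized coverage was *Anxa1*, *Anxa2*, *Anxa3*, *Anxa8*, *Anxa5*, *Anxa4*, *Anxa7*, *Anxa6*, *Anxa11* and *Anxa9*, and of these neighbours only *Anxa5* and *Anxa4* overlapped between libraries. In the DKSFM cells it was *Anxa1*, *Anxa2*, *Anxa8*, *Anxa3*, *Anxa4*, *Anxa7*, *Anxa5*, *Anxa11*, *Anxa6* and *Anxa9*, and only *Anxa2* and *Anxa8* overlapped. Among the tested genes *Anxa1* lay at percentile 99.8 in the KSFM-Ca2+ cells and 99.9 in the DKSFM cells, while *Anxa9* lay at percentile 27.1 and 13.7. Annexins with more coverage in the DKSFM cells tended to have the higher log2 fold change (Spearman's rho = 0.83 over 10 genes), and the same order against the level in the KSFM-Ca2+ cells gave 0.624. These genes share their libraries, and the level in the DKSFM cells is itself part of the fold change, so that both values are descriptions only. The remaining annexins of the files, *Anxa10* and *Anxa13*, were listed at 0.3 or less in every library and were not tested.

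*Anxa8*, whose protein binds endosomal membranes and actin, had the largest difference of the family. Its normalized coverage was 599, 588 and 596 in the KSFM-Ca2+ libraries and 2352, 2422 and 2335 in the DKSFM libraries. Every DKSFM library stood far above every KSFM-Ca2+ library, and the spread within each line was small. The means were 594 ± 5.71 and 2369.9 ± 45.8, a 3.99-fold rise (log2 fold change 1.995, SE 0.03, 95% confidence interval 1.94 to 2.05, limma adjusted p = 5.46e-10). By log2 fold change *Anxa8* ranked 781 among the 12409 tested genes, so that many genes rose more. Among the tested genes it lay at percentile 97.3 in the KSFM-Ca2+ cells and 99.6 in the DKSFM cells.

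The bases before the start of 3 genes are shown because they stand for the outcomes seen in the family, *Anxa8* for the 2-fold rise, *Anxa2* for a small rise and *Anxa11* for a fall. The sequences come from the RefSeq promoter table of the build GRCm38.p6, which held 8 of the 10 annexins with 11 start sites, and no entry for *Anxa3* and *Anxa6*. Only bases outside every exon of the GENCODE annotation are printed, 5′ to 3′, at chr14:34085729-34085978 (+ strand) for *Anxa8*, chr9:69453433-69453619 (+ strand) for *Anxa2* and chr14:25841905-25842154 (+ strand) for *Anxa11*. Capitals mark matches on either strand to the letters TGANTCA (the AP-1 motif, N being any base), TATAAA (the TATA box) or GGGCGG (the GC box, CCGCCC on the other strand).
Anxa8: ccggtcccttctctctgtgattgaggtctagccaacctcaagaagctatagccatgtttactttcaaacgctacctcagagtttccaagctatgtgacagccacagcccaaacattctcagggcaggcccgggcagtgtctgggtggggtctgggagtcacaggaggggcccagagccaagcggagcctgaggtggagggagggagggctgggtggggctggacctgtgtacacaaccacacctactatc
Anxa2: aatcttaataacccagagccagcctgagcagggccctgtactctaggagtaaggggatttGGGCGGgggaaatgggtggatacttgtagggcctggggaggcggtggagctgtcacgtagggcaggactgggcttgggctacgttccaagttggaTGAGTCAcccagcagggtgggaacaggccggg
Anxa11: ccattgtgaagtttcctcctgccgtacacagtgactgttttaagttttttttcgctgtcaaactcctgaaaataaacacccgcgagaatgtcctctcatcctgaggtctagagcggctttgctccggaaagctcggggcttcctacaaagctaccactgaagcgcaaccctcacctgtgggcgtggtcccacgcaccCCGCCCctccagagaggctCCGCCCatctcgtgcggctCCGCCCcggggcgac
Over the 250 bases before each of the 32851 start sites of the table, 6.75% held the AP-1 letters, 12.4% the TATA box, 33.8% the CCAAT box (letters CCAAT, searched on both strands) and 32.7% the GC box. Of the 11 annexin start sites 1 held the AP-1 letters, 2 the TATA box, 0 the CCAAT box and 4 the GC box. The AP-1 match was that of *Anxa2*, 95 bases before its start, and the TATA box stood 17 bases before the start of *Anxa2* and 32 bases before that of *Anxa1*, in bases that the annotation counts as exon and that are not printed. *Anxa2* also had 3 GC boxes, of which 1 is in the printed bases. The 250 bases before *Anxa8* held none of the 4 motifs and 4 CpG, beside a median of 6 CpG over all start sites. *Anxa11* had 3 GC boxes and 17 CpG there. A match is a description of letters, and binding at any of them was not measured.

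*Anxa1*, *Anxa2* and *Anxa11* encode the annexins best known as S100 partners. *Anxa1*, which binds S100A11 and acts against inflammation through formyl peptide receptors, had a normalized coverage of 3893, 3776 and 4226 in the KSFM-Ca2+ libraries and 4730.4, 4871 and 4719.6 in the DKSFM libraries. It was the most abundant annexin in all 6 libraries, and every DKSFM library lay above every KSFM-Ca2+ library. The means were 3965 ± 233 and 4774 ± 84.7, a 1.21-fold rise (log2 fold change 0.27, SE 0.04, limma adjusted p = 0.000527). With only the libraries marked combined, 1 of the KSFM-Ca2+ cells and 3 of the DKSFM cells, the log2 fold change of *Anxa1* was 0.18 and did not pass (limma adjusted p = 0.0237, in a range of 7.64e-05 to 0.0237 over the alternatives). *Anxa2*, which forms a tetramer with S100A10 at the cell surface and binds plasminogen there, was 2087, 2112 and 2229.7 in the KSFM-Ca2+ libraries and 2443, 2271 and 2451 in the DKSFM libraries. The lines did not overlap, but the highest KSFM-Ca2+ library and the lowest DKSFM library lay close to each other. The means were 2143 ± 76.3 and 2388 ± 102, a 1.11-fold rise (log2 fold change 0.16, SE 0.04, limma adjusted p = 0.00712). The call was lost in 4 of the 6 fits that left out a library: limma's adjusted p was 0.0301 without KSFM-Ca2+ replicate 1, 0.0293 without KSFM-Ca2+ replicate 2, 0.0264 without DKSFM replicate 1 and 0.0312 without DKSFM replicate 3, with log2 fold changes of 0.14, 0.15, 0.15 and 0.14. It held without KSFM-Ca2+ replicate 3 (0.00448) and without DKSFM replicate 2 (0.00256). Over all 16 alternatives tried for *Anxa2*, the call was lost in 7. The smallest log2 fold change among them was 0.098, with only the libraries marked combined, where 1 KSFM-Ca2+ library is left.

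*Anxa11*, whose protein binds S100A6 and the EF-hand protein PDCD6 and tethers RNA granules to lysosomes, went the other way. It was 37.3, 34.6 and 37.0 in the KSFM-Ca2+ libraries and 23.8, 23.4 and 25.8 in the DKSFM libraries, without overlap. The means were 36.3 ± 1.5 and 24.3 ± 1.27, a 1.49-fold fall (log2 fold change -0.58, SE 0.05, limma adjusted p = 1.72e-05). Its level is uncertain, because 610 of the 2345 stretches of 50 bases in its longest coding transcript (26.0%) also occur in the pseudogenes *Gm2260* and *Gm2274* of the same chromosome, which the files do not list, and how shared reads entered the coverage is not stated. No other annexin shared such a stretch with another gene.

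The genes of the S100 partners were measured beside them. *S100a11* was 2624, 2589 and 2767 in the KSFM-Ca2+ libraries and 4694, 4481 and 4753 in the DKSFM libraries (a log2 fold change of 0.80, SE 0.04, limma adjusted p = 2.55e-07). *S100a10* was 1855, 1819 and 1977 in the KSFM-Ca2+ libraries and 2581, 2474 and 2415 in the DKSFM libraries (a log2 fold change of 0.40, SE 0.04, limma adjusted p = 2.64e-05). *S100a6* rose from a mean of 2007 ± 174 to 3040.3 ± 36.7 (log2 fold change 0.60, SE 0.06, limma adjusted p = 1.78e-05). Each of these 3 partners was higher in every DKSFM library than in any KSFM-Ca2+ library, where 83.3% of all tested genes did not overlap and 35.5% were called higher, and each had a higher log2 fold change than the annexin it binds. The difference between partner and annexin was not tested, and is given as a ratio in each library. On the scale of coverage per base, the ratio of *Anxa1* to *S100a11* was 1.48, 1.46 and 1.53 in the KSFM-Ca2+ libraries and 1.01, 1.09 and 0.993 in the DKSFM libraries. The ratio of *Anxa2* to *S100a10* was 1.12, 1.16 and 1.13 in the KSFM-Ca2+ libraries and 0.947, 0.918 and 1.01 in the DKSFM libraries. Both pairs were thus closer to equal coverage in the DKSFM cells, and neither ratio overlapped between the lines. Whether their transcript levels were closer to equal is not known, since how coverage was computed is not given. The ratio of *Anxa11* to *S100a6* was 0.0182 ± 0.00127 in the KSFM-Ca2+ cells and 0.00800 ± 0.000492 in the DKSFM cells. *S100a4*, the other S100 partner tested, was low and did not pass the threshold, with 7.27 ± 0.960 in the KSFM-Ca2+ cells and 5.81 ± 0.985 in the DKSFM cells (log2 fold change -0.33, SE 0.15, limma adjusted p = 0.0679), and every DKSFM library lay below every KSFM-Ca2+ library. *S100a1* and *S100b* were listed at 0 in every library.

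**Figure D2:**
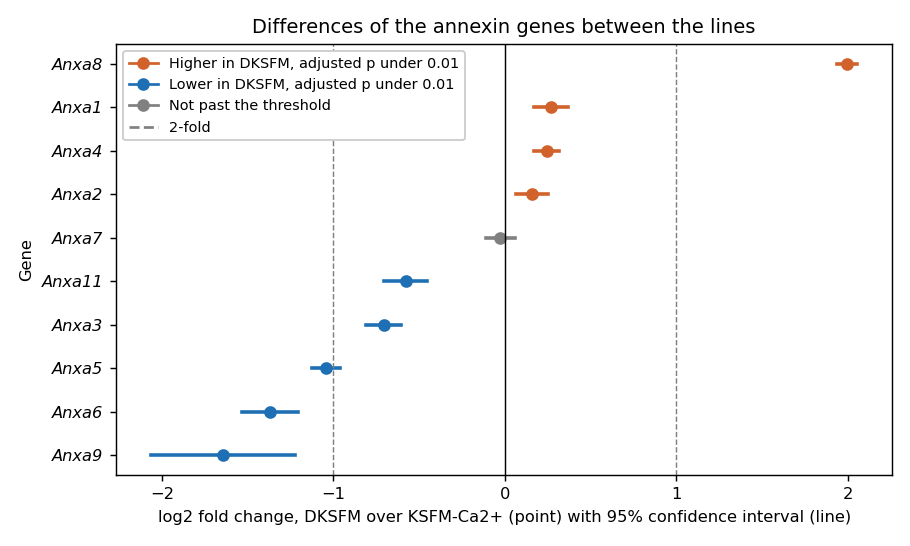
Log2 fold change (DKSFM over KSFM-Ca2+) of each annexin gene with its 95% confidence interval from limma, 3 libraries per line, with dashed lines at 2-fold. The values run from -1.64 for *Anxa9* to 1.995 for *Anxa8*, and the interval of *Anxa7* spans 0.

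*Anxa5* and *Anxa6* both fell. *Anxa5*, whose protein binds exposed phosphatidylserine and is used to stain dying cells, was 231, 222 and 241 in the KSFM-Ca2+ libraries and 112, 110.4 and 113 in the DKSFM libraries. The lines were far apart, and the DKSFM libraries were nearly equal to each other. The means were 231 ± 9.30 and 112 ± 1.40, a 2.06-fold fall (log2 fold change -1.04, SE 0.04, 95% confidence interval -1.13 to -0.96, limma adjusted p = 4.94e-08). The interval reaches across 2-fold, and *Anxa5* fell by 0.99 on the log2 scale under quantile normalization, so that it counts as a 2-fold change only narrowly. *Anxa6*, the largest member with a duplicated core, which acts on endosomes and cholesterol transport, was 46.1, 41.1 and 39.2 in the KSFM-Ca2+ libraries and 15.6, 15.9 and 17.2 in the DKSFM libraries. The means were 42.1 ± 3.57 and 16.2 ± 0.836, a 2.58-fold fall without overlap (log2 fold change -1.37, SE 0.07, limma adjusted p = 4.56e-07). *Anxa4*, abundant in many secretory epithelia, was 221, 218 and 228 in the KSFM-Ca2+ libraries and 257, 271 and 261 in the DKSFM libraries. Its DKSFM libraries were all higher, a 1.18-fold rise (log2 fold change 0.24, SE 0.03, limma adjusted p = 0.000123). With the libraries marked combined only, the log2 fold change of *Anxa4* was 0.21 and did not pass (limma adjusted p = 0.0165, in a range of 1.68e-05 to 0.0165 over the alternatives). *Anxa4* and *Anxa5*, which overlapped in the KSFM-Ca2+ cells, were thus clearly apart in the DKSFM cells.

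Genes listed here under the exposure and retention of phosphatidylserine, the lipid that *Anxa5* binds, were measured beside it. Of 6 such genes 5 were tested, 1 was higher (beside 35.5% of all tested genes) and 4 were lower (beside 37.1%), a count over few genes that was not tested as a group. *Plscr1*, which is named as a phospholipid scramblase gene, was 38.1, 38.7 and 38.1 in the KSFM-Ca2+ libraries and 1.06, 0.799 and 0.636 in the DKSFM libraries (a log2 fold change of -5.39, SE 0.15, limma adjusted p = 2.03e-08). The calcium-activated scramblase gene *Ano6* rose by 0.23 (SE 0.03, limma adjusted p = 0.000192). The flippase genes *Atp11a* (log2 fold change -0.29) and *Atp11b* (-0.61) and their shared subunit gene *Tmem30a* (-0.67) were lower in every DKSFM library. Libraries of the lines did not overlap for 83.3% of all tested genes.

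The remaining members were a granule-bound annexin of neutrophils, an annexin of secretory vesicles and an annexin with a changed core. *Anxa3*, the first of these, was 691, 691 and 758 in the KSFM-Ca2+ libraries and 451, 439 and 419.8 in the DKSFM libraries. No library of one line reached the other. The means were 713 ± 38.6 and 437 ± 15.7, a 1.63-fold fall (log2 fold change -0.71, SE 0.04, limma adjusted p = 1.59e-06). *Anxa7*, known as synexin for the fusion of secretory vesicles, was 165, 171 and 180.2 in the KSFM-Ca2+ libraries and 166, 169 and 170.5 in the DKSFM libraries. Its lines overlapped, and the difference did not pass the threshold (log2 fold change -0.03, 95% confidence interval -0.11 to 0.06, limma adjusted p = 0.523). The sign of this small value turned under quantile normalization (0.03) and without KSFM-Ca2+ replicate 3 (0.007521). *Anxa9*, whose core has lost residues that hold calcium in the other annexins, was 6.94, 6.53 and 8.50 in the KSFM-Ca2+ libraries and 2.02, 2.998 and 1.91 in the DKSFM libraries. It was the lowest of the 10 annexins in every library and did not overlap between the lines, a 3.12-fold fall from 7.32 ± 1.04 to 2.31 ± 0.600 (log2 fold change -1.64, SE 0.18, limma adjusted p = 5.01e-05). At this level the pseudocount weighs on the log2 fold change, which was -1.34 with a pseudocount of 1. With the libraries marked combined only it was -1.86 and did not pass (limma adjusted p = 0.0105, in a range of 1.12e-05 to 0.0105 over the alternatives).

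**Figure D3:**
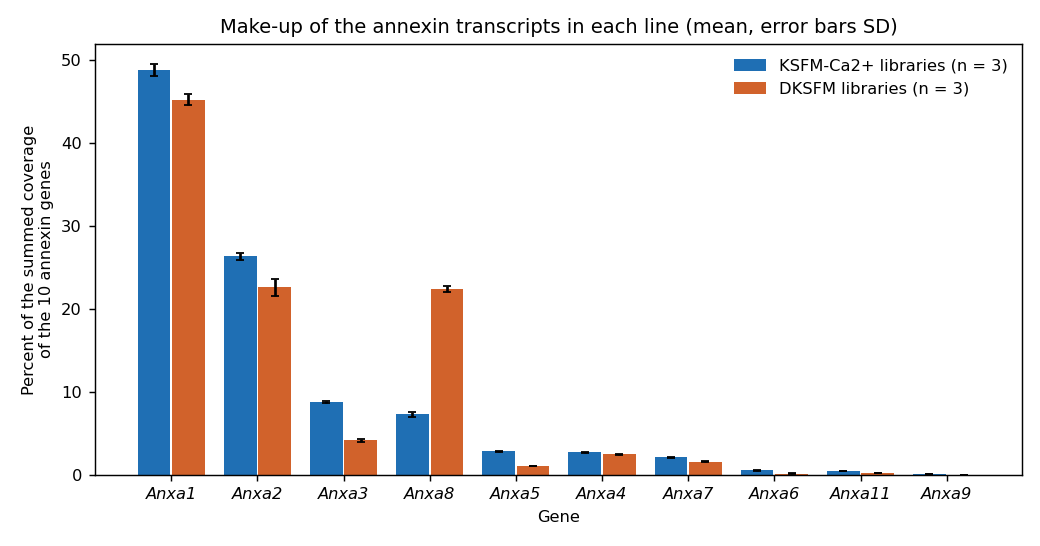
Share of each annexin gene in the summed normalized coverage of the 10 annexins, as mean with SD over 3 libraries per line, in percent from 0. The share of *Anxa8* goes from 7.32% to 22.45%, and those of *Anxa1*, *Anxa2* and *Anxa3* are smaller in the DKSFM cells.

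The summed coverage of the 10 annexins was higher in the DKSFM cells, although 5 of them fell and their median log2 fold change was -0.30. The abundant *Anxa1* had means of 3965 and 4774, and *Anxa8* of 594 and 2369.9. The sum was 7976, 7861 and 8543 in the KSFM-Ca2+ libraries and 10554, 10596 and 10515 in the DKSFM libraries, which did not overlap. This was 0.653%, 0.642% and 0.684% of all coverage in the KSFM-Ca2+ libraries and 0.847%, 0.856% and 0.847% in the DKSFM libraries. The make-up of this sum also differed. *Anxa1* held 48.8% ± 0.712 of it in the KSFM-Ca2+ cells and 45.2% ± 0.648 in the DKSFM cells. *Anxa2* held 26.4% ± 0.428 and 22.6% ± 1.04, and *Anxa3* held 8.77% ± 0.105 and 4.14% ± 0.140. Only *Anxa8* took a larger share, 7.32% ± 0.294 in the KSFM-Ca2+ cells and 22.45% ± 0.352 in the DKSFM cells. The ratio of *Anxa8* to *Anxa2* was 0.287, 0.278 and 0.268 in the KSFM-Ca2+ libraries and 0.963, 1.07 and 0.953 in the DKSFM libraries, so that the pair reached about equal coverage there. A share falls when another member rises, and *Anxa1*, *Anxa2* and *Anxa4* lost share although their own coverage rose.

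**Figure D4:**
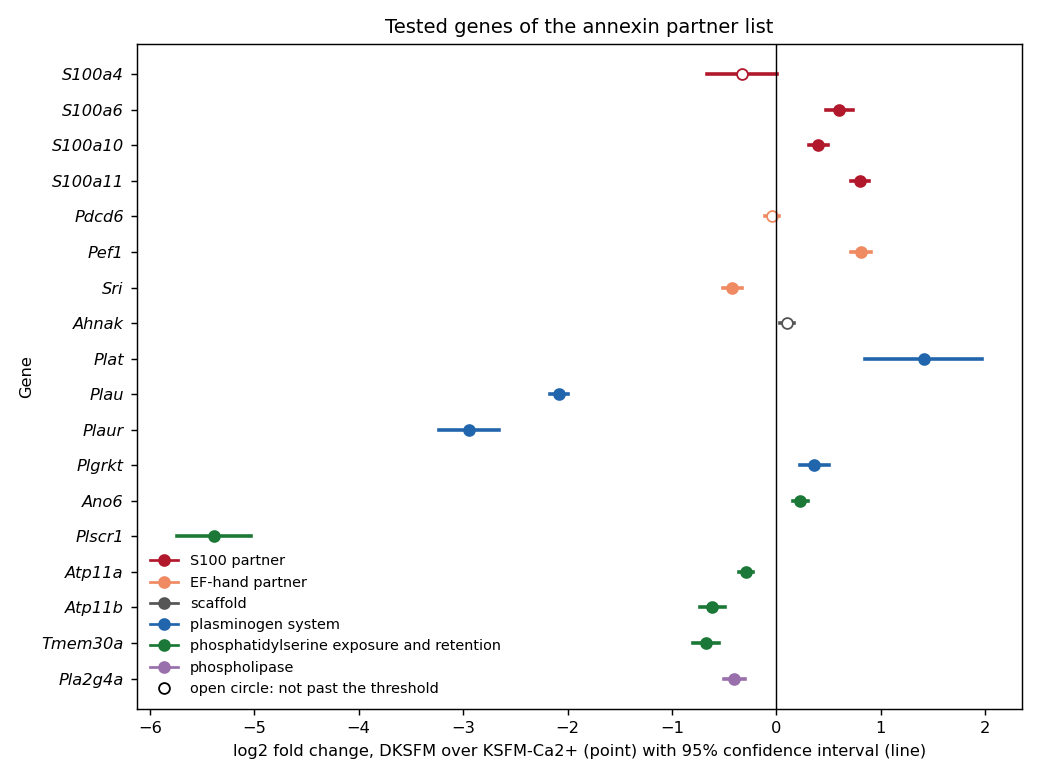
Log2 fold change (DKSFM over KSFM-Ca2+) of the 18 tested genes of the partner list with 95% confidence intervals from limma, coloured by role, open circles for genes that did not pass the threshold. The S100 partners *S100a6*, *S100a10* and *S100a11* lie to the right of 0, the open circle of *S100a4* lies to the left at -0.33, and *Plscr1*, *Plaur* and *Plau* lie far to the left.

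The wider list of genes that bind annexins or act on the same membranes is reported here with 25 genes, of which 18 were tested, 7 were higher, 8 were lower and 3 did not pass. These counts lie near the shares over all tested genes, 35.5% higher and 37.1% lower. The 18 log2 fold changes had a median of -0.17. The 3 genes that did not pass, named after their values were seen, were *S100a4* (limma adjusted p = 0.0679), *Pdcd6* (0.222) and *Ahnak* (0.0106), a scaffold of the *Anxa2* complex. *Pef1*, a partner of PDCD6, was higher (log2 fold change 0.81, SE 0.04, limma adjusted p = 3.93e-07), and *Sri*, whose protein sorcin binds *Anxa7* protein, was lower (log2 fold change -0.42, SE 0.04, limma adjusted p = 2.11e-05). *Pla2g4a*, a phospholipase gene, was lower with a log2 fold change of -0.40. The formyl peptide receptor genes *Fpr1* and *Fpr3* were listed at 0 in every library and *Fpr2* at 0.1 in a single DKSFM library, so that no receptor of this kind was listed above 0.1 beside the abundant *Anxa1*.

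The plasminogen system, which meets the *Anxa2* tetramer at the cell surface, is reported here with 5 genes, of which 4 were tested, 2 were higher and 2 were lower, beside 35.5% and 37.1% of all tested genes. The urokinase gene *Plau* was 160.3, 159.8 and 172 in the KSFM-Ca2+ libraries and 39.3, 38.6 and 38.1 in the DKSFM libraries (a log2 fold change of -2.08, SE 0.04, limma adjusted p = 2.38e-09). Its receptor gene *Plaur* had a log2 fold change of -2.94 (SE 0.12, limma adjusted p = 1.57e-07). The tissue activator gene *Plat* was low, with 0.486 ± 0.128 in the KSFM-Ca2+ cells and 1.46 ± 0.323 in the DKSFM cells (log2 fold change 1.41, SE 0.24, limma adjusted p = 0.000722). Only 1 of its KSFM-Ca2+ libraries reached 0.5, so that *Plat* passed the filter through the DKSFM libraries, and with the filter on every library it was not tested and 14 partner genes were called in place of 15. The plasminogen receptor gene *Plgrkt* rose by 0.37 on the log2 scale, and *Plg* itself was listed at 0.

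The annexin genes were compared with other families that bind membranes through calcium, the copines, ferlins and extended synaptotagmins. Of 18 such genes 17 were in the files and 9 were tested, of which 3 were higher, 4 were lower and 2 did not pass, again near the 35.5% and 37.1% of all tested genes, and their log2 fold changes had a median of -0.39. The 2 that did not pass, named after their values were seen, were *Cpne5* (limma adjusted p = 0.0262) and *Esyt1* (0.0472). The myoferlin gene *Myof*, which also acts in membrane repair, was 458, 446 and 436 in the KSFM-Ca2+ libraries and 287, 276 and 290.3 in the DKSFM libraries (a log2 fold change of -0.65, SE 0.03, limma adjusted p = 3.17e-07). Its fall was close in size to that of *Anxa3*. The dysferlin gene *Dysf*, another ferlin of membrane repair, was low, with 0.442 ± 0.0406 in the KSFM-Ca2+ cells and 1.15 ± 0.343 in the DKSFM cells (log2 fold change 1.17, SE 0.25, limma adjusted p = 0.00232). *Dysf* passed the filter only through the DKSFM libraries, and with the filter on every library it was not tested and 6 related genes were called in place of 7. Among the copines *Cpne8* (log2 fold change 0.79, SE 0.04) and *Cpne3* (0.27) were higher, and *Cpne1* (-0.49) and *Cpne2* (-0.39) were lower. The extended synaptotagmin gene *Esyt2* was lower with a log2 fold change of -0.52.

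By pattern over the 6 libraries, the genes most like *Anxa8*, the annexin with the highest log2 fold change, were *Epha1*, *Aif1l* and *Krt16*, with root mean square differences of 0.0175, 0.0359 and 0.0368 between centred log2 values, among 8682 genes with a mean coverage of at least 10. *Epha1* rose from a mean of 32.2 to 128 and *Krt16* from 144 to 591. The genes most like *Anxa9*, the annexin with the lowest log2 fold change, were *Pip4k2a*, *Dtwd1* and *Mtg1*, with larger differences of 0.172, 0.176 and 0.18. *Anxa9* itself lay below the minimum of 10, with means of 7.32 in the KSFM-Ca2+ cells and 2.31 in the DKSFM cells. Genes at its level were therefore not among the candidates.

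**Figure D5:**
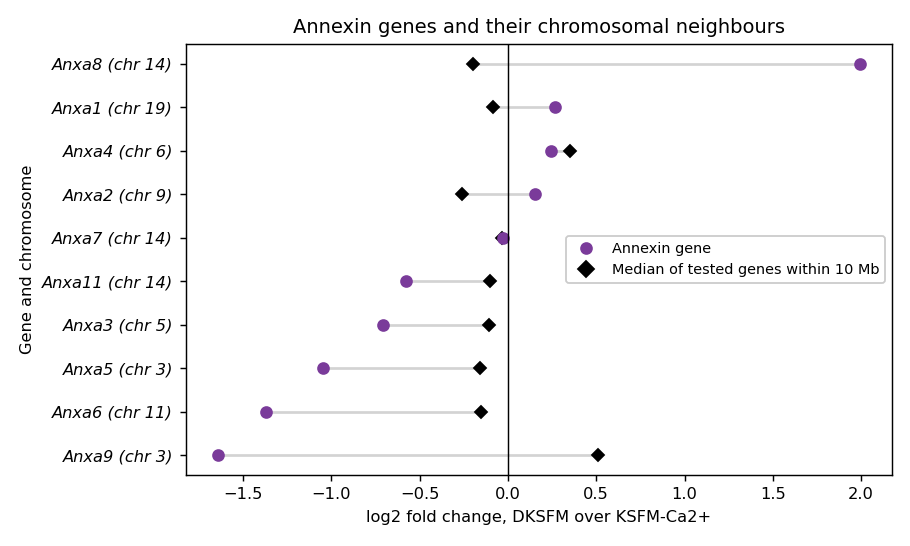
Log2 fold change (DKSFM over KSFM-Ca2+) of each annexin gene (circle) and the median of the tested genes within 10 Mb on its chromosome (diamond). *Anxa8* and its neighbours differ by 2.19, and *Anxa4* lies below its neighbours.

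The annexin genes lie on 7 chromosomes of the mouse genome (GRCm38), 3 of them on chromosome 14 and 2 on chromosome 3. *Anxa8* lies at chr14:34085981-34100571 (+ strand), *Anxa11* at chr14:25842156-25886804 (+ strand) and *Anxa7* at chr14:20455260-20480133 (- strand). These 3 genes had log2 fold changes of 1.995, -0.58 and -0.03, while the median of the tested genes within 10 Mb was -0.19, -0.10 and -0.03. *Anxa5* at chr3:36448923-36475894 (- strand) and *Anxa9* at chr3:95296096-95307176 (- strand) both fell, beside window medians of -0.16 and 0.51. *Anxa1* (chr19:20373428-20390944, - strand), *Anxa2* (chr9:69453620-69491795, + strand), *Anxa3* (chr5:96793339-96845966, + strand) and *Anxa6* (chr11:54979108-55033445, - strand) kept their sign after the window median was taken off. *Anxa4* (chr6:86736840-86793584, - strand) did not, and neither did the small value of *Anxa7*, which turned from -0.0265 to 0.0078. For *Anxa4* the log2 fold change of 0.24 was below the 0.35 of its 112 neighbours, a difference of -0.11. Measured genes overlap *Anxa1*, *Anxa8* and *Anxa9* on the opposite strand. The one at *Anxa8*, *A630023A22Rik*, was listed at 1.3 or less and had a log2 fold change of -1.14, the one at *Anxa9*, *Mindy1*, had 1.52, and the one at *Anxa1*, *1500015L24Rik*, had -0.28. The libraries keep the strand and the study's methods give a strand setting for the alignment, while the sources used here do not describe the step from alignment to coverage.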

How the data were processed

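RNA-seq libraries of poly(A) RNA from 3 KSFM-Ca2+ and 3 DKSFM samples were grouped by the GEO labels. The authors deposited a signal, the mean read coverage per base of each gene, to 1 decimal and without scaling. The submitters' processing notes name bcl2fastq, STAR, DESeq2 and mm10, with no versions, and the study's methods add Salmon for quantification and a strand setting for the alignment. How coverage was computed is not given in the sources used here, and "combined" in the names of 4 files is not explained. Since coverage is not a count, the error of counting reads is not given.

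Coverage was scaled by trimmed means of M values (trims 30% and 5%). Genes reaching 0.5 of normalized coverage in 3 or more libraries were fitted as log2(normalized coverage + 0.1) with limma 3.58.1 in R 4.3.3, with an intensity trend, and p-values were adjusted by Benjamini-Hochberg. Genes were called under an adjusted p of 0.01, and counted again at 2-fold. A fold change on this scale understates that of low genes. The procedure was tested on simulated data in which far fewer genes changed than were called here. Positions came from GENCODE M21 by symbol (12265 of 12409 tested genes), promoters from RefSeq. Figures used Python 3.11.15 and matplotlib 3.10.9.

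The members and lists were chosen with earlier results of these data known, and some genes of the partner list are not reported here. The rule for named genes took the members and other annexins of the files, list genes past the threshold, and the 3 genes most like the members with the highest and lowest change; markers had a list of their own. List genes that did not pass or were not tested, and genes that overlap a member or share its sequence, were named outside this rule, with values seen. Alternatives were other scalings, pseudocounts, filters and thresholds, no trend, a replicate block, each library left out, and the libraries marked combined only.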

Additional observations from a re-analysis of the deposited data

How the results depend on the processing

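*Anxa3*, *Anxa5*, *Anxa6*, *Anxa8* and *Anxa11* kept direction and call under all 16 alternatives, with log2 fold changes of 1.98 to 2.04 for *Anxa8*. *Anxa2* lost its call in 7 of 16, without a change of direction. *Anxa1*, *Anxa4* and *Anxa9* lost theirs only with the libraries marked combined, where a single KSFM-Ca2+ library is assumed to vary like the DKSFM libraries (log2 fold changes of 0.18, 0.21 and -1.86, limma adjusted p of 0.0237, 0.0165 and 0.0105, against smallest values of 7.64e-05, 1.68e-05 and 1.12e-05 over the alternatives). There 5 annexins and 4 of the related genes passed, with fewer samples. The log2 fold change of *Anxa7* turned to 0.03 under quantile normalization (0.03282, limma adjusted p = 0.389) and ran from -0.05691 to 0.007521 when each library was left out, and the cause was not tested. With the filter on every library, 1032 genes were at least 2-fold higher, from fewer genes tested. The replicate block called 8726 genes and 9 annexins, with no annexin changing side. Deviations of same-numbered libraries from the means of their lines had r of -0.0651, 0.0455 and -0.0241 over 8683 genes. For differently numbered libraries r ran from -0.0509 to 0.0847. With 3 libraries per line these values cannot decide whether the numbers pair the samples. Other scalings shifted the median of all tested genes to between -0.0451 and 0.011. Low values such as those of *Anxa9* are limited by the rounding step of 0.1.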
